A study of Bos taurus with 12 samples.

Results

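Zinc finger genes were examined in sperm DNA of bulls whose daughters had low fertility (6 samples), set against bulls whose daughters had high fertility (6 samples). All 12 samples were sperm of male cattle, profiled over the whole genome by enzymatic methylation sequencing, in which enzymes convert unmethylated cytosines before sequencing; the labels give no breed, age, batch or pairing. The members were the genes on chromosomes 1 to 29 whose description in the authors' annotation contains the words zinc finger and that were the closest feature, within 10 kb, of a locus in the authors' tables. These were 54 of the 2469 autosomal genes so placed. They had 161 single CpG sites in 38 genes and 113 tiles, which are windows of 500 bp moved in steps of 100 bp, in 18 genes. Only 2 members were in both tables, 36 had sites only and 16 had tiles only. No site was listed on some autosomes, chromosomes 2 and 4 among them, so members there could have tiles only.

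A zinc finger is a small protein fold held together by a zinc ion. Many zinc finger proteins carry long rows of such folds and bind DNA, and a large mammalian group of them has a KRAB domain that recruits silencing machinery, often to retrotransposons and in some cases to imprinted regions. Other zinc finger folds bind RNA, histone tails or other proteins, or belong to enzymes such as the DHHC palmitoyltransferases. Sperm DNA is highly methylated in most of the genome and sparsely methylated at many CpG-rich promoters.

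Each locus carried a methylation difference between the groups in percentage points, a p-value and a q-value, all computed by the authors. The tables do not say which group was subtracted, so differences are called negative or positive as listed and are not assigned to low or high daughter fertility. A locus is called here when the authors' q is below 0.05 and the difference is at least 10 points in size. Methylation levels and read depth per sample were not analysed here, so no spread between samples and no depth stands behind any value below, and a small q is not read as agreement between bulls. Adjacent tiles overlap and share CpG sites, and neighbouring sites are not independent.

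Of the 54 genes, 2 had a called locus. One is ENSBTAG00000037710, listed as zinc finger protein 331, on chromosome 18, with 7 called sites and no called tile. The other is GLIS family zinc finger 3 on chromosome 8, with 5 called tiles and no listed site. The remaining 52 genes had no call per the authors' deposited tables. Called members made up 7 of 161 sites (4.35%), against 4.14% of all 4207 autosomal sites within 10 kb of a gene. Of the 7 called member sites 6 were negative (85.7%), against 104 of the 174 called sites near any gene (59.8%). Counted over all 161 member sites, 6 were called with a negative difference, against 2.47% of all 4207 sites. Genes with a called site were 1 of 38 members (2.63%), against 5.28% of all 2123 genes with a site. For tiles, 5 of 113 member tiles were called (4.42%), against 2.01% of all 1791 tiles within 10 kb of a gene, and 1 of 18 member genes had one, against 1.96% of 460 genes. All called tiles, of members and of other genes, were negative, so 2.01% is also the share called with a negative difference. These member shares rest on 1 gene in each table.

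**Figure D1:**
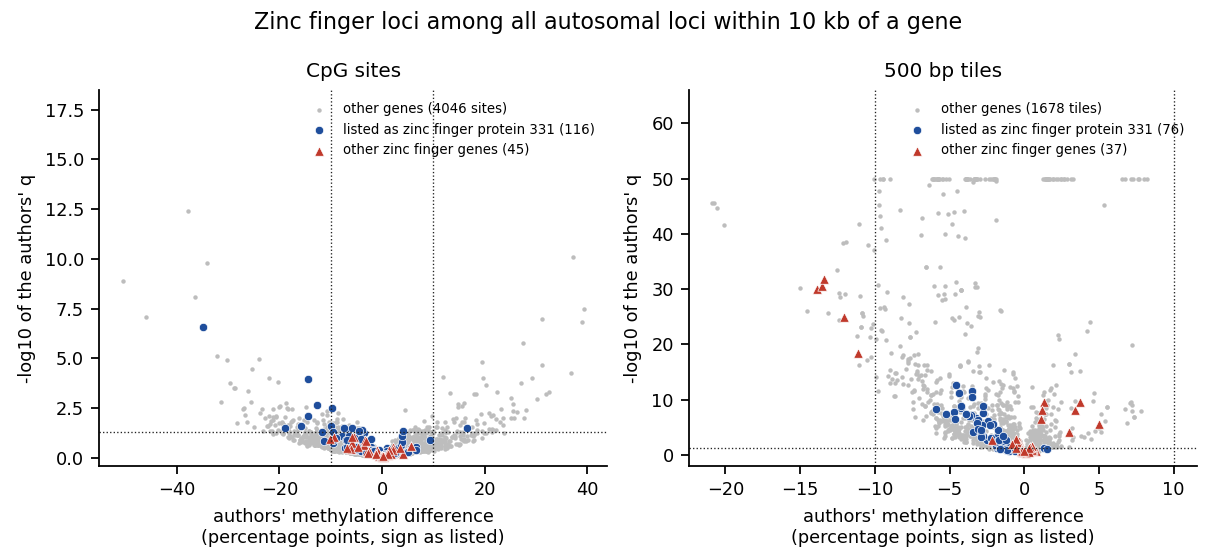
Authors' difference in percentage points (x axis) against -log10 of the authors' q (y axis) for autosomal sites (left) and tiles (right) within 10 kb of a gene; blue circles are the gene listed as zinc finger protein 331, red triangles the other zinc finger genes and grey points all other genes. Dotted lines mark q of 0.05 and 10 points, and 72 tiles with -log10 q above 50 are drawn at 50. The 7 blue called sites include 6 negative ones, and the 5 red tiles left of -10 points belong to GLIS family zinc finger 3.

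The listed loci were very unevenly spread over the members. The gene listed as zinc finger protein 331 held 116 of the 161 sites (72.0%) and 76 of the 113 tiles (67.3%). No other autosomal gene had as many sites within 10 kb, the next having 106, and for tiles it came second to a gene with 85. Of the 38 members with sites, 32 had a single site, and only zinc finger protein 706 (4 sites) and zinc finger homeobox 4 (3 sites) had more than 2 besides the gene listed as zinc finger protein 331. Chromosome 18 carried 15 of the 54 member genes (27.8%), against 102 of all 2469 genes (4.13%). It also held 125 of the member sites and 92 of the member tiles.

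The median difference followed that 1 gene. Over all member sites it was -1.68 points, with 105 negative, 52 positive and 4 at 0, against -0.451 points over all autosomal sites near a gene, of which 53.5% were negative. Without the gene listed as zinc finger protein 331, the median of the other 45 sites was -0.0801 points, with 24 negative, 17 positive and 4 at 0. For tiles the median was -1.46 points over all members and -0.128 points over the 37 tiles of the other 17 genes, against -0.394 points over all tiles near a gene.

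The gene listed as zinc finger protein 331 runs on the minus strand of chromosome 18 in the ARS-UCD1.2 build. The authors' annotation places its last exon from position 57219131 and its outermost 5′ untranslated region at 57343362 to 57343755, a span of 124625 bp. Most of this is 1 intron of 115921 bp, at positions 57227360 to 57343280. The name needs care. The annotation pairs this gene with NCBI gene 100336984, which the reference gene table of the later ARS-UCD2.0 assembly lists as LOC100336984, whereas that table gives the symbol ZNF331 to a different gene, 516156. What is known of ZNF331 is therefore not applied to this locus.

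Both tables leaned to negative differences at this gene, although few single sites passed the call. Of its 116 sites 81 were negative and 35 positive, with a median of -2.24 points. The q was below 0.05 at 15 sites, 13 of them negative, and these were all the member sites with q below 0.05 per the authors' deposited table. That is 9.32% of member sites, against 5.75% of all autosomal sites near a gene. Of its 76 tiles 65 were negative (85.5%), against 63.7% of all tiles near a gene, and 11 were positive. Its tiles had a median of -1.90 points and a range of -5.89 to 1.50 points. The q was below 0.05 for 52 of these tiles, all negative, and for 75 of all 113 member tiles (66.4%), against 67.2% of all tiles near a gene. A q below 0.05 is thus the usual case for a tile in this table.

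The negative values were not spread evenly along the gene. Downstream of the last exon, 9 of 14 sites were negative (median -0.967 points). Of the 11 tiles there, which form 2 merged regions, 9 were positive, with a median of 0.461 points and no q below 0.05. From the last exons up to an inner coding start at positions 57230891 to 57230971, 20 of 27 sites were negative (median -3.04 points) and none was called. All 35 tiles of that stretch, which form 7 merged regions, were negative, with a median of -2.74 points, and 30 of them had q below 0.05. This stretch holds coding exons, but most of its listed sites are annotated to introns, many of them inside the long intron.

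The strongest lean among sites lay upstream of the inner coding start, though not at the sites nearest to it. The authors class 18 sites there, at positions 57230999 to 57239242, as promoter, and all 18 also lie inside the long intron of the same gene. Of these 18 sites 15 were negative, with a median of -5.89 points. The 2 nearest the start were positive per the authors' deposited table. They stood at 3.85 points (28 bp away) and 3.97 points (1088 bp away, q = 0.0456). Of the 18 sites 2 were called, 3432 and 8246 bp from the start. The called ones stood at -12.7 points (q = 0.00221, position 57234403) and -14.4 points (q = 0.00789, position 57239217) per the authors' deposited table. All 11 tiles classed to this promoter, which form 2 merged regions, were negative with q below 0.05, from -5.89 to -2.15 points. The lowest tile of the whole gene, at -5.89 points (q = 5.08e-09, positions 57234301 to 57234800) per the authors' deposited table, covers the first of these called sites.

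At the outer end of the long intron, 20 of 25 sites were negative and the median was -2.12 points. The only positive call of any member lay here, at 16.5 points (q = 0.0311, position 57336409) per the authors' deposited table. A negative call of -19.0 points (q = 0.0331, position 57341442) followed 1838 bp inside the intron's edge in the same authors' deposited table. Neither site had another listed site within 250 bp or a listed tile over it. The 9 tiles of this stretch form 2 merged regions. Of these tiles 7 were negative and 2 positive, with a median of -1.31 points, and 3 had q below 0.05.

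Upstream of the outer 5′ untranslated region the signs were mixed, yet 3 sites were called. Of 32 sites at positions 57345211 to 57347634, 17 were negative and 15 positive, with a median of -0.312 points. The lowest member value of either table, -35.0 points (q = 2.81e-07) per the authors' deposited table, was the site at position 57347634, which lies 3879 bp from the untranslated region and had no listed site within 250 bp and no listed tile over it. The calls at positions 57345633 (-15.9 points, q = 0.0253) and 57345829 (-14.5 points, q = 0.000104) per the authors' deposited table stood among many listed neighbours. Within 250 bp of the site at 57345829 there were 14 other sites, 6 of them negative, with a median of 0.486 points. Around the site at 57345633 there were 9, 5 of them negative, with a median of -0.0750 points. The tiles over these 2 sites ran from -2.12 to -1.24 points per the authors' deposited table. The 10 tiles upstream of the outer 5′ untranslated region form 1 merged region. All were negative, from -2.87 to -1.18 points, and 8 had q below 0.05.

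**Figure D2:**
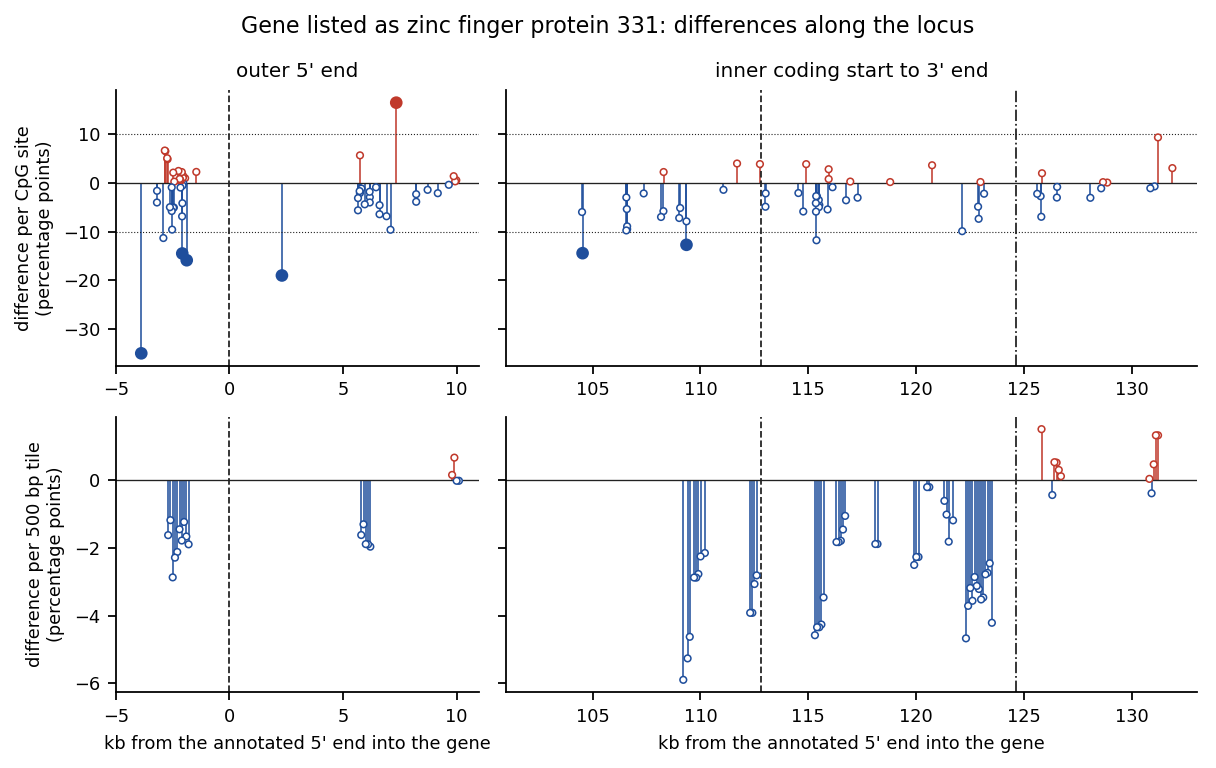
Authors' difference in percentage points for each site (top) and each tile (bottom) of the gene listed as zinc finger protein 331, by distance in kb from its annotated 5′ end into the gene, with the stretch between the panels left out. Filled points are called loci, blue is negative and red positive, dashed lines mark the outer 5′ end and the inner coding start, the dash-dotted line marks the last exon's outer edge, and dotted lines mark 10 points. Tiles from the last exons up to the inner coding start and upstream of both 5′ ends are negative. Beyond the last exon 9 of the 11 tiles are positive, and neighbouring tiles overlap.

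Agreement between strands and between tables was checked at this gene. Both strands of a CpG were listed at 9 CpGs, all of this gene. The sign was the same on both strands at 8 of them, 7 negative and 1 positive. Of all sites of this gene 69.8% were negative, so strands with unrelated signs would often agree too. The agreement was not tested. Only 1 of these 9 held a call, with -12.7 points on the called plus strand and -7.90 points on the minus strand per the authors' deposited table. For the other 6 called sites the opposite strand was not listed. Of the 53 tiles of this gene that contain a listed site of it, 42 had the sign of the mean of those sites. Part of this is built in, since a tile combines the CpG sites it covers.

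A second gene shares the long intron. Of the 180 listed sites inside the intron, 103 are annotated to ENSBTAG00000051816, which has no functional name and is not a zinc finger gene by description. Of its 103 sites there 7 were called, all negative, from -20.7 to -17.0 points per the authors' deposited table. Of its 111 tiles there 6 were called, from -15.0 to -10.5 points per the authors' deposited table. These intron counts have no distance limit. Among all autosomal loci within 10 kb of a gene, 4.14% of sites and 2.01% of tiles were called. Among those over 10 kb away, 4.52% of sites and 3.55% of tiles were. Which of the overlapping genes a locus belongs to cannot be told apart by position.

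GLIS family zinc finger 3 had the lowest tiles of all members. It encodes a Krüppel-like transcription factor needed in pancreatic beta cells and the thyroid and, in mice, for the maintenance of spermatogonia. Its 5 tiles overlap in 1 region of 900 bp, at positions 40569401 to 40570300 of chromosome 8, which the authors class as promoter, and the tiles start 4415 to 4815 bp upstream of a coding segment at 40574216 to 40574308. From the first to the last tile the differences were -13.9, -13.5, -13.4, -12.1 and -11.1 points, with q between 1.27e-32 and 4.14e-19, per the authors' deposited table. The values shrink in size towards the coding segment, and consecutive tiles share most of their length. Counted as merged tiles, GLIS family zinc finger 3 is 1 called region of the 30 member tile regions. No single CpG site inside these tiles, or elsewhere near this gene, was listed, so the tiles could not be set beside sites.

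IKAROS family zinc finger 1, a transcription factor of lymphocyte development, had the highest tiles of all members. Its 4 overlapping tiles lie in an intron, at positions 5528801 to 5529600 of chromosome 4. They were listed at 4.97, 2.98, 3.38 and 3.70 points per the authors' deposited table. All 4 had q below 0.05, the lowest being 3.39e-10 per the authors' deposited table, and none reached 10 points. Among the tiles of all members, GLIS family zinc finger 3 and IKAROS family zinc finger 1 stood at opposite ends of the tile differences.

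**Figure D3:**
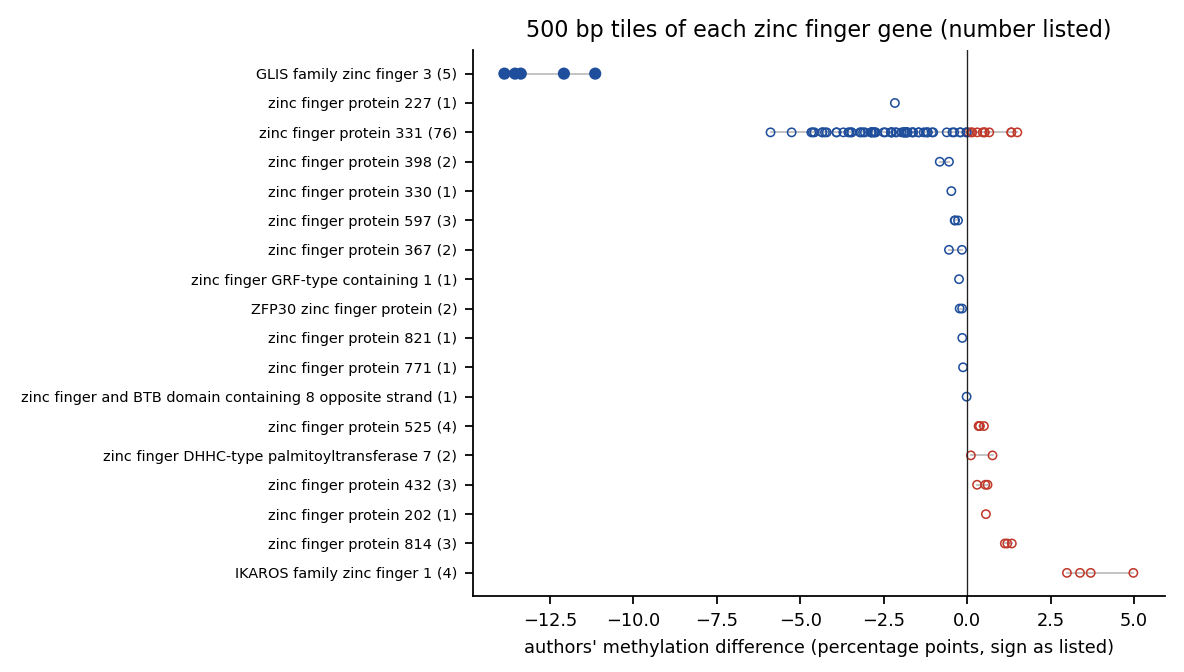
Authors' difference in percentage points (x axis) for every tile of the 18 zinc finger genes with tiles (y axis, number of tiles in brackets), ordered by median. Filled points are called tiles, blue is negative, red positive, and a grey line joins the lowest and highest tile of a gene. The tiles of GLIS family zinc finger 3 lie at -13.9 to -11.1 points and those of IKAROS family zinc finger 1 at 2.98 to 4.97 points.

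The other 15 genes with tiles, apart from the gene listed as zinc finger protein 331, had small differences. Zinc finger protein 227 had 1 tile at -2.17 points (q = 0.00256), 71 bp from its 5′ untranslated region, per the authors' deposited table. Zinc finger protein 814 had 3 promoter tiles from 1.12 to 1.33 points, all with q below 0.05, per the authors' deposited table. The remaining 13 genes stayed within 1 point of 0. Zinc finger protein 597, imprinted in human, had 3 tiles downstream of its coding sequence at -0.378, -0.278 and -0.366 points, with q below 0.05 for each, per the authors' deposited table. The zinc finger protein 432 tiles ran from 0.292 to 0.606 points, with no q below 0.05, per the authors' deposited table. Zinc finger DHHC-type palmitoyltransferase 7, an enzyme that attaches palmitate to proteins, had tiles at 0.755 and 0.107 points, both with q above 0.05, per the authors' deposited table. Zinc finger GRF-type containing 1 had 1 promoter tile at -0.248 points (q = 0.0463) per the authors' deposited table. Zinc finger and BTB domain containing 8 opposite strand, which is in the set by its name only, had 1 tile at -0.0204 points (q = 0.199) per the authors' deposited table.

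Zinc finger protein 525 was the other gene in both tables, and there 1 of its 2 sites differed in sign from the tiles. Its 2 promoter sites, 3 bp apart on chromosome 18, were listed at 1.41 points (q = 0.405) and -5.95 points (q = 0.0923) per the authors' deposited table. Its 4 promoter tiles, each of which covers both sites, ran from 0.339 to 0.498 points, and 3 of them had q below 0.05, per the authors' deposited table. A tile may hold CpG sites that are not among the listed sites, and their part in the opposite sign of that site was not tested.

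Among single sites, none of the 45 sites of the other 37 genes was called or had q below 0.05, the lowest q being 0.0919. With 45 sites, a count of 0 allows a share of up to 6.67% (3 counts of the total, counting error only), which is above the 4.14% called among all autosomal sites near a gene. A lower rate of calls at these genes was therefore not detectable. Differences ran from -10.2 to 5.72 points, 9 sites reached 5 points in size (9 of 45, against 27.3% of all sites near a gene), and 17 were within 1 point of 0.

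Members with a number for a name, most of them DNA-binding, other than the gene listed as zinc finger protein 331, formed the largest group, with 24 sites in 19 genes. Of these sites 12 were negative, 10 positive and 2 at 0, with a median of -0.0615 points. The lowest was an intronic site of zinc finger protein 143, an activator that binds many promoters, at -9.29 points (q = 0.0919) per the authors' deposited table. Zinc finger protein 665 followed with a promoter site at -6.92 points (q = 0.303), and zinc finger protein 609 had an intronic site at -5.56 points (q = 0.0927), per the authors' deposited table. The 4 sites of zinc finger protein 706, all in its promoter within 106 bp, were listed at 1.51, -5.92, 5.72 and -6.10 points, so neighbouring CpGs had opposite signs per the authors' deposited table. Zinc finger protein 148, a factor of GC-rich promoters, had 2 coding sites at 0.379 and -0.529 points per the authors' deposited table. The highest value after zinc finger protein 706 was that of zinc finger protein 48, at 4.08 points (q = 0.643) per the authors' deposited table.

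Members with other named domains had 1 to 3 sites each. Zinc finger and SCAN domain containing 29 had the lowest of all sites outside the gene listed as zinc finger protein 331, an intronic site at -10.2 points. It passed the size threshold but not the q threshold (q = 0.110, authors' deposited table). Zinc finger with KRAB and SCAN domains 7 was listed at 0 points per the authors' deposited table. Zinc finger and BTB domain containing 2 and 1, of a family of transcription factors with a pairing domain, stood at -3.53 and -0.893 points per the authors' deposited table. Zinc finger homeobox 4 had 3 sites at -0.0801, -3.26 and -0.251 points per the authors' deposited table.

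Members that act on chromatin or RNA, and those named for other folds, had 1 or 2 sites each and no call. Bromodomain adjacent to zinc finger domain 1A and 1B, subunits of chromatin remodelling complexes, were listed at -3.23 and 3.55 points per the authors' deposited table. Zinc finger MYND-type containing 8 and 11, which read histone marks, stood at -2.33 and 0.278 points per the authors' deposited table. GATA zinc finger domain containing 2A, of the NuRD repressor complex, had a site at -0.0505 points per the authors' deposited table. Zinc finger CCCH-type containing 12D, which degrades messenger RNA, was listed at 5.63 points (q = 0.248) and helicase with zinc finger, an RNA helicase, at -1.24 points per the authors' deposited table. The promoter site of nanos C2HC-type zinc finger 2, an RNA-binding protein that preserves male germline stem cells in mice, was listed at 0 points (q = 0.836) per the authors' deposited table. Zinc finger DHHC-type palmitoyltransferase 21 had a site at 2.11 points, and zinc finger SWIM-type containing 6 one at -2.69 points, per the authors' deposited table. Zinc finger AN1-type containing 4 had 2 intronic sites at 1.22 and 0.0812 points, and zinc finger and AT-hook domain containing had 1 downstream site at -2.55 points, per the authors' deposited table.

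**Figure D4:**
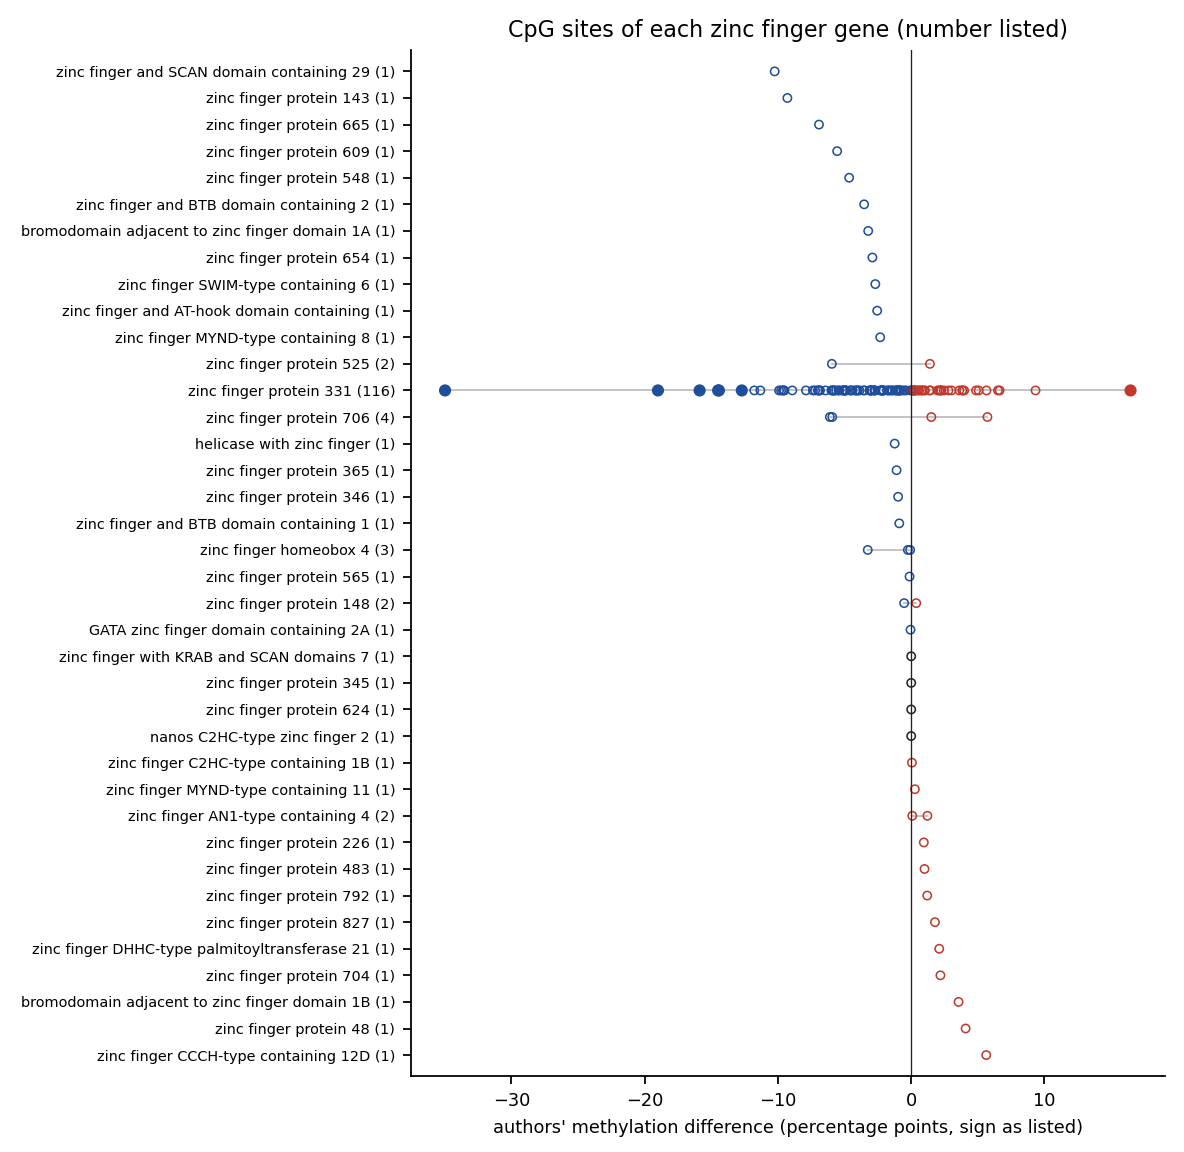
Authors' difference in percentage points (x axis) for every site of the 38 zinc finger genes with sites (y axis, number of sites in brackets), ordered by median. Filled points are called sites, open points are not called, blue is negative, red positive and black 0. All 7 filled points are at the gene listed as zinc finger protein 331, and the sites of the other 37 genes lie between -10.2 and 5.72 points.

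The share of member sites in the promoter class was set by chromosome 18. The authors class 62 of the 161 member sites (38.5%) as promoter, against 19.6% of all autosomal sites near a gene, and 50 of these 62 belong to the gene listed as zinc finger protein 331. Without that gene the share was 26.7% of 45 sites, and on the other autosomes it was 13.9% of 36 sites, below that of all genes; the difference was not tested. Of the 7 called sites 5 were in the promoter class, as were 58 of the 174 called sites of all genes. The other 2 had the class of loci within a gene and lay in the long intron. The 5 called tiles, all of GLIS family zinc finger 3, were in the promoter class, as were 14 of the 36 called tiles of all genes.

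The values nearest the call threshold were as follows. The called site of smallest size was the one at -12.7 points. Just below the threshold, with q below 0.05, were sites at -9.91 points (position 57221627, in coding sequence) and -9.76 points (position 57237190) of the gene listed as zinc finger protein 331, per the authors' deposited table. Besides the site of zinc finger and SCAN domain containing 29, 2 sites of at least 10 points missed the q threshold, both at the gene listed as zinc finger protein 331, with -11.8 points (q = 0.0522) and -11.3 points (q = 0.137) per the authors' deposited table. Further uncalled sites of that gene with q below 0.05 nearest the threshold stood at -7.37, -6.96 and -5.88 points per the authors' deposited table. Among tiles, the called tile of smallest size was -11.1 points and the largest uncalled one -5.89 points.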

How the data were processed

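Sperm DNA of 6 low and 6 high daughter fertility samples was grouped by the labels' condition, one spelling variant of low included. Trimmomatic, Bismark, methylKit and the ARS-UCD1.2 build are named in the submitters' processing notes, without versions, roles or settings. The 2 tables hold the authors' own comparison: p-values and q-values were deposited by the authors, with a difference in percentage points under methylKit's column name. The adjustment is not stated, and the q lay below the p for 18.5% of sites and 68.7% of tiles. A q therefore states the authors' test only. Per-sample values were not used here, so no new test was run and no sample was left out. Chromosomes 2, 3, 4, 12, 23 and 27 (sites) and 12, 23 and 27 (tiles) had no listed loci and so were not analysed here.

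Members were found by decoding the annotation and matching zinc finger in the description. Members, lists and thresholds were chosen with earlier results of these data known. Distances inside a feature are counted to its edge, so intronic loci over 10 kb from an edge are not members. Symbols were looked up in the ARS-UCD2.0 gene table for the 14 members with an NCBI number; 3 of these have a LOC symbol. Described genes are those with a call, with the most loci, nearest the threshold, and at the extremes of each name group; others described were added after their values were seen. Counting used Python 3.11.15 and pandas 2.3.3, and the merging steps were tested on a few made-up loci with known answers.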

Additional observations from a re-analysis of the deposited data

How the results depend on the processing

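The call rests on thresholds and on 1 gene a table. Of the 161 sites, 4 were called at q below 0.01, 12 at 5 points and 1 at 20 points, against 7. Within 2000 bp only 63 sites remained, 2 of them called. Among loci inside a feature (an alternative added after the data were seen) 2 of 76 sites were called, against 77 of 2483 such sites of all genes. For the other alternatives no share over all genes is given, so their counts cannot be set against it. The negative share, 85.7% of the 7, was 100% at q below 0.01, at 20 points and within 2000 bp. Of the 2 called sites inside a feature 1 was negative. Called tiles, 5 in all, were 0 at 20 points, within 2000 bp, inside a feature and when the members were restricted by name to the C2H2 type (a name rule that leaves out GLIS family zinc finger 3, itself a C2H2 factor), and 1 with overlapping tiles merged. Without the gene with the most called loci of each table, 0 of 45 sites in 0 genes and 0 of 108 tiles were called. The site median was then -0.0801 points. Without chromosome 18, 0 of 36 sites in 0 genes were called, and the medians were -0.166 points for sites and -0.366 points for tiles. Over all members with overlapping tiles merged, chromosome 18 included, the tile median was -0.348 points, against -1.46 points unmerged. Within 50000 bp the medians were -0.950 points for sites, against -1.68 points, and -0.556 points for tiles. No median changed sign in any of these alternatives. No member locus was listed at a distance of 0 bp, so that alternative gave no value. In 30 comparisons, the share inside a feature and the medians within 50000 bp among them, values stayed within 1.5 times a count, or within the 95% interval of a share or median, which takes loci as independent although tiles overlap and most belong to 1 gene. In the other 22 comparisons values moved beyond these limits. Depth behind each value is unknown.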

Other observations

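Zinc finger genes whose listed loci lay over 10 kb from the gene, or on the X chromosome, held a few further calls. Over 10 kb away on autosomes, 4 of 111 sites in 24 zinc finger genes were called (3.60%), against 4.52% of the 3562 sites of all genes at such distances. The lowest was a distal intergenic site on chromosome 24, position 31769747, 76818 bp from zinc finger protein 521, a transcription factor of progenitor cells, at -34.9 points (q = 4.77e-07) per the authors' deposited table. On the same chromosome a site 64732 bp from zinc finger and BTB domain containing 7C stood at -14.8 points (q = 0.00286) per the authors' deposited table. The other 2 lay 28668 and 34710 bp beyond the gene listed as zinc finger protein 331, at -16.3 and -10.1 points per the authors' deposited table. That gene held 70 of the 111 sites. On the X chromosome 1 of 52 sites in 5 zinc finger genes was called (1.92%), against 12.9% of the 3266 sites of all genes there, and 44 of the 52 belong to 1 gene. The called site lies inside zinc finger protein 711, at -16.9 points (q = 0.0270) per the authors' deposited table. The 44 sites of the gene listed as zinc finger protein 75D (ENSBTAG00000047954) held no call and ran from -2.63 to 9.08 points per the authors' deposited table. None of the 112 zinc finger tiles outside the rule was called, and 100 of them belong to the gene listed as zinc finger protein 331. Of the tiles of all genes, 3.55% of 987 over 10 kb away on autosomes and 9.07% of 540 on the X chromosome were called. These genes were described after their values were seen.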
